A study of Mus musculus with 32 samples.

Results

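RA EBs are mouse embryoid bodies (EBs), floating aggregates of differentiating stem cells, that had been kept with retinoic acid (RA). The libraries examined were those of the RA EBs of day 8: 1 treated with bisphenol A (BPA), 1 with bisphenol F (BPF), 1 with bisphenol S (BPS) and 1 with the solvent dimethyl sulfoxide (DMSO). They were chosen by the stage and treatment in the labels, and make up 4 of the 32 libraries. The whole series covers 8 stages with 4 treatments and 1 library for each combination. All groups came from the J1 embryonic stem cell line, which has the strain 129S4/SvJae, and the labels name no edited allele. The RA EBs had spent 4 days with RA, and each bisphenol was given at 100 nM. In BPA a carbon that carries methyl groups links the phenol rings, in BPF the link is a methylene group, and in BPS it is a sulfonyl group. EBs are mixtures of cell types, so fewer cells of a type and less RNA per cell cannot be told apart. The question of the comparison was which transcripts differed between bisphenol-treated and solvent-treated cultures at this stage.

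RA enters the nucleus bound to small carrier proteins and activates receptors that sit on DNA as pairs. In EBs it turns on Hox genes of the hindbrain and spinal cord and steers cells to neural fates. Bisphenols are industrial chemicals that can bind estrogen receptors and some other nuclear receptors, and BPF and BPS are used in place of BPA.

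The 4 libraries held 10243170 to 11070149 expected counts (reads that the authors' software estimated per gene) and listed 16583 to 16828 genes. Levels are given as deposited FPKM, in which the reads of a gene are divided by its transcript length and by the reads of the library. Markers of neural tissue were present in each library. The summed FPKM of 5 neural progenitor markers (Sox1, Sox2, Pax6, Nes and Hes5) ran from 237 to 261, and that of 5 hindbrain and spinal cord markers from 438 to 493. Summed levels of 5 markers each were 0.53 to 1.94 for cardiac muscle, 3.96 to 7.03 for endothelium and 8.72 to 12.3 for fibroblasts. They were 5.94 to 9.41 for visceral endoderm and 7.84 to 11.01 for neural crest. Surface ectoderm markers reached a higher sum, 47.87 to 61.2 FPKM. Most of that sum came from Epcam, at 46.2 to 59.64 FPKM. None of these markers passed the test between bisphenols and DMSO. The DMSO library stood apart from the others. Its genes deviated from the mean of the 4 libraries with an SD of 0.18 (log2 of FPKM + 1, 8745 genes), against 0.11 to 0.13 in the bisphenol libraries. The DMSO library also deviated most at each other stage from day 4 on. The SD was 0.22 against 0.11 to 0.17 in EBs of day 9, and 0.17 against 0.10 to 0.13 in neural progenitor cultures of day 10. In the stem cells of day 0 the DMSO library did not deviate most (0.086 against 0.086 to 0.103). With 1 DMSO library, what belongs to the treatment and what belongs to that library cannot be told apart. A permutation of the labels of 1 library against 3 cannot give an exact p below 0.25, so the tests rest on a model over all 32 libraries that takes the lone DMSO library to vary like the others. Each stage has 1 DMSO library, so the spread in that model comes only from differences among the BPA, BPF and BPS libraries within stages. The compounds thus stood in for replicates, and no spread between DMSO libraries entered. The labels name no separate cultures, and the p-values measure only that spread, which may be technical.

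With the 3 bisphenols taken as 1 class, 366 of 15632 genes tested passed an adjusted p of 0.05 (2.34%). Of these, 141 were higher with bisphenols (0.902%) and 225 lower (1.44%). Transcripts of ribosomal proteins stood among the higher ones. Among the lower ones were small subunits of the enzyme that attaches sugar chains to proteins, of cytochrome c oxidase and of the ATP synthase. Few changes were large: 4 genes were higher and 22 lower by a log2 of 1 or more. The count fell to 182 without the BPS library and to 224 without the BPA library, and was 126 when the fit used the RA EB and NPC (neural progenitor culture) libraries alone. With the 4 RA EB libraries alone it was 2, with 2 residual degrees of freedom, and neither gene was among the 366.

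Promoter sequences of genes that results below turn on are shown first, to let a reader compare start regions of lowered and raised genes. Each run holds the 120 bases before the first start site that the RefSeq promoter table (GRCm38.p6) lists for the gene, written 5′ to 3′ on the gene's strand. For Krtcap2 that start lies downstream of the outermost start of the gene, so its run lies within the gene's span, and the other 4 runs end at the outer edge of their genes. Capitals mark the motifs searched, which were CCGGAA (the core bound by ETS factors), GGGCGG (the GC box), CCAAT and TATAAA, on both strands. Cox8a (chr19:7217617-7217736, minus strand), Krtcap2 (chr3:89246318-89246437, plus strand) and Mif (chr10:75860278-75860397, minus strand) were lowered. Rpl24 (chr16:55966155-55966274, plus strand) and Rpl35a (chr16:33056333-33056452, plus strand) were raised.
Cox8a: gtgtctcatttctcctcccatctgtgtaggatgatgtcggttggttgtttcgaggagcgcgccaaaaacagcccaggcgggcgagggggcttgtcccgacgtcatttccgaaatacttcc
Krtcap2: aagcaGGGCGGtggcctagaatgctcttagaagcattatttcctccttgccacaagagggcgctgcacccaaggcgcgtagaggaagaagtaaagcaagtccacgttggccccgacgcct
Mif: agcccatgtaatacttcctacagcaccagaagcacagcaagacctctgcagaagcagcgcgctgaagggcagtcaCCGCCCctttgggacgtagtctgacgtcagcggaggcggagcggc
Rpl24: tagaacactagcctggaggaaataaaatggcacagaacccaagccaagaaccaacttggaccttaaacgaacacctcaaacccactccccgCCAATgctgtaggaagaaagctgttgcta
Rpl35a: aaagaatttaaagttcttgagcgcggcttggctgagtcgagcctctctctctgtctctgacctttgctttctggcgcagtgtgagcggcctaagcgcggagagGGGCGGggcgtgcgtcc
Krtcap2, Mif and Rpl35a each hold 1 GC box, Rpl24 holds 1 CCAAT and Cox8a has none of the 4 motifs in this window. A GC box was present in 50.8% of the 181 lowered genes with a promoter, in 47.4% of the 116 raised genes and in 48.9% of 12268 tested genes. CCAAT was present in 27.6%, 38.8% and 25.6% of these sets, CCGGAA in 19.9%, 19% and 14.2%, and TATAAA in 1.7%, 4.3% and 3.0%. These matches describe the letters and are not binding sites.

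Cox8a, a nuclear-encoded subunit of cytochrome c oxidase (Entrez 12868, GRCm38 chromosome 19, 7215158 to 7217616), had the smallest p of the named genes. Its level was 191 FPKM in DMSO, 83.6 with BPA, 58.1 with BPF and 74.98 with BPS. The bisphenol libraries averaged 72.2 ± 12.9 FPKM (SD, n = 3) and did not overlap the DMSO library. Genes of largest change were named only where the 3 compounds went in 1 direction, so the lack of overlap was set by that rule. The log2 change was -1.35 ± 0.13 (SE; adjusted p = 2.07e-06, edgeR quasi-likelihood test).

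Lowered genes also included 3 subunits of the oligosaccharyltransferase, the enzyme of the endoplasmic reticulum that moves sugar chains onto new proteins. Krtcap2 (chromosome 3, 89245904 to 89249729) stood at 80.6 FPKM in DMSO, 34.9 with BPA, 30.1 with BPF and 19.7 with BPS. Tmem258 (chromosome 19, 10204202 to 10207824) stood at 72.7 FPKM in DMSO and at 31.3, 31.1 and 31.7 with BPA, BPF and BPS. In both genes the DMSO library was above each bisphenol library, as that rule required, and the Tmem258 levels of the bisphenol libraries were close together. Dad1, the third, was at 48.9 FPKM in DMSO and at 21.2 to 24.3 with bisphenols. The log2 changes were -1.46 ± 0.17 for Krtcap2 (adjusted p = 2.66e-05), -1.15 ± 0.16 for Tmem258 (adjusted p = 0.000131) and -1.02 ± 0.17 for Dad1 (adjusted p = 0.00212). The other 9 of 12 subunits tested did not pass, among them the catalytic subunit Stt3a (-0.20 ± 0.10). Over the 12, the median change was -0.19, and 8 were below DMSO in the 3 bisphenol libraries, as were 31.6% of all genes. Dpm3, which anchors the enzyme that makes mannose donors for the same pathway, fell by 1.24 ± 0.27 on the log2 scale.

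Mif, a cytokine-like protein with tautomerase activity (chromosome 10, 75859353 to 75860277), was the most abundant lowered gene named. It was at 1490.5 FPKM in DMSO, 657 with BPA, 764 with BPF and 654 with BPS (log2 change -1.06 ± 0.14, adjusted p = 0.000131). Bc1, a short noncoding RNA of rodent neurons that represses translation (chromosome 7, 144914470 to 144914623), was at 469 FPKM in DMSO, 169 with BPA, 105 with BPF and 153 with BPS. Its log2 change was the lowest among called genes of 5 FPKM or more named by the rule at -1.67 ± 0.25 (adjusted p = 0.000772). The Bc1 transcript is 154 bases long. The metallothionein Mt1, a metal-binding stress protein, was at 29.1 FPKM in DMSO and at 10.0 to 12.7 with bisphenols (-1.30 ± 0.27). G6pc3, a glucose-6-phosphatase of the endoplasmic reticulum, fell from 17.7 to between 7.60 and 9.79 FPKM (-0.998 ± 0.13). Cmtm7, a membrane protein of the MARVEL family, and Card19, of the CARD family, had log2 changes of -1.10 ± 0.23 and -1.02 ± 0.22.

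Oaz1, the antizyme that limits polyamine synthesis, was listed at 66.2 FPKM in DMSO and at 17.4 to 28.3 with bisphenols (-1.52 ± 0.29). Oaz1-ps, listed under a pseudogene symbol, can share its reads and held more of them. Summed over both, the level was 362 CPM (counts scaled to the size of the library) in DMSO and 250, 263 and 236 with BPA, BPF and BPS, a log2 ratio of -0.54. The sum thus differed by less than Oaz1 alone.

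Among raised genes, Prex2, an activator of the small GTPase Rac (chromosome 1, 10993273 to 11303683), had the highest log2 change of those with counts in each library. It was at 4.77 FPKM in DMSO, 15.9 with BPA, 12.7 with BPF and 11.4 with BPS (1.43 ± 0.23, adjusted p = 0.00152). Its DMSO level lay within the 3.87 to 8.50 FPKM of the 16 libraries of EBs of days 6 to 20, and the bisphenol levels lay above that range. Jdp2, a repressor of the AP-1 family, was at 7.30 FPKM in DMSO and at 10.6 to 13.6 with bisphenols (0.76 ± 0.17). Hypk, which regulates protein N-terminal acetylation, was at 116 FPKM in DMSO and at 167 to 188 with bisphenols (0.63 ± 0.12). Zfp51, a zinc finger protein (0.76 ± 0.18), Sh3bp5 (0.76 ± 0.20), Prxl2a, a peroxiredoxin-like protein (0.65 ± 0.14), and Ccdc12 (0.60 ± 0.12) were higher as well.

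**Figure D1:**
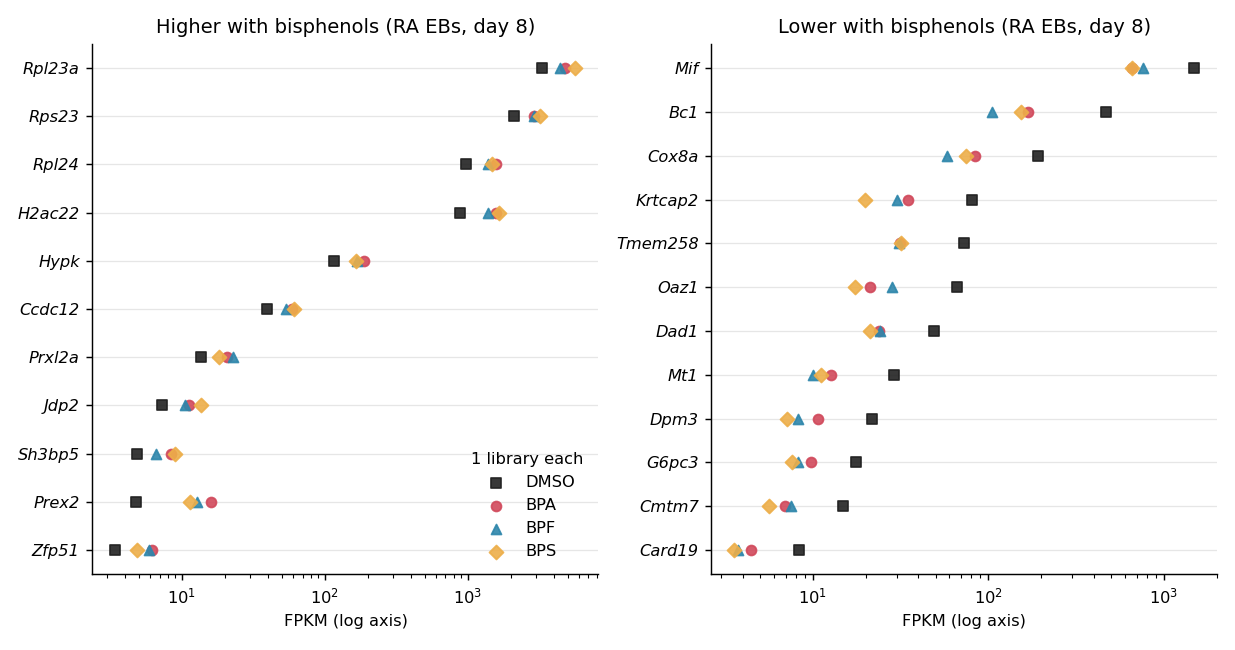
FPKM (log axis) of the named higher genes (left, without H2ac24, which is listed at 0 in DMSO) and lower genes (right) in the 4 RA EB libraries, 1 point for each library. The DMSO squares lie to one side of the bisphenol points in each row, as for Cox8a at 191 FPKM against 58.1 to 83.6.

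The histone genes H2ac22 and H2ac24 encode H2A proteins. H2ac22 was at 885 FPKM in DMSO and at 1391 to 1669 with bisphenols (0.86 ± 0.22, adjusted p = 0.037). H2ac24 was without counts in DMSO and at 216 FPKM with BPA, 297 with BPF and 174 with BPS. Against a floor of 3 counts in the DMSO library, it was at least 331-fold higher on average with bisphenols. That bound covers counting error only and leaves out how reads were divided among gene copies. H2ac24 was listed at 0 in 27 of the 32 libraries. It had counts only in the RA EBs with bisphenols, the EBs of day 20 with BPA and the NPCs with DMSO. It thus passed the filter of 1 CPM in at least 4 libraries only through the group where it was high. H2A genes are near-identical copies that can share reads. Summed over 17 H2ac genes, the level was 1161 CPM in DMSO, 1440 with BPA, 1280 with BPF and 1517 with BPS, a log2 ratio of 0.28, so the change of H2ac24 alone is uncertain. The other core histone families, at far lower levels, had log2 ratios of -0.30 (H2B, 9.60 CPM in DMSO), -0.51 (H3, 1.95 CPM) and -0.95 (H4, 2.64 CPM), and the linker histones H1 0.05 (1454 CPM). Of 21 tested genes in the list of replication-dependent histones, which did not take in H2ac24 because its older symbol is shared with another gene, 1 was higher (H2ac22) and 0 lower, with a median of -0.22.

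Ribosomal proteins of the cytoplasm build the subunits that translate mRNA. Of 82 tested, 14 rose and 0 fell, with a median log2 change of 0.20, against 0.902% of all genes raised and a median of 0.00 (0.00047). DESeq2 called 23 higher and 1 lower, and without the BPA library edgeR called 7 higher and 0 lower, and without the BPS library 8 and 1. The medians were 0.21 with BPA, 0.19 with BPF and 0.22 with BPS. In the 3 bisphenol libraries 56 of the 82 lay above DMSO, as did 29.8% of all genes. Rps23, of the decoding region of the small subunit (chromosome 13, 90923122 to 90924732), was at 2111 FPKM in DMSO, 2901 with BPA, 2932 with BPF and 3214 with BPS (0.57 ± 0.09, adjusted p = 0.00152). Rpl24 was at 968 FPKM in DMSO, 1578 with BPA, 1384 with BPF and 1477 with BPS (0.66 ± 0.12, adjusted p = 0.00361). The DMSO library was the lowest of the 4 for both genes, as the naming rule required. Rpl23a went from 3327 FPKM to between 4440 and 5682 (4439.8 with BPF and 5681.5 with BPS; log2 change 0.64 ± 0.13), and Rpl35a from 792 to between 1078 and 1172 (0.55 ± 0.10). Rpl35, Rpl38 and Rpl36a had log2 changes of 0.56 ± 0.12, 0.48 ± 0.11 and 0.47 ± 0.11.

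Copies of ribosomal protein genes can share reads, and they differed in direction. Rpl34-ps1, listed under a pseudogene symbol, was lower with bisphenols (-0.55 ± 0.11, adjusted p = 0.00649), while Rpl34 itself had a change of -0.12 ± 0.19. Their sum was 365 CPM in DMSO and 267, 244 and 252 with BPA, BPF and BPS, a log2 ratio of -0.52, opposite to the 14 raised members. Rps15a-ps6 was higher (1.12 ± 0.14, adjusted p = 6.6e-05). Summed with Rps15a and Rps15a-ps4 it gave 263 CPM in DMSO and 352, 396 and 362 with BPA, BPF and BPS. Copies under other kinds of symbol were not summed. Mitochondrial ribosomal proteins, which translate the mitochondrial genome, had 0 higher and 1 lower of 78 (Mrps24, -0.82 ± 0.17) and a median of 0.10.

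Respiratory chain and ATP synthase subunits moved in both directions, with 4 higher and 8 lower of 78 and a median of 0.05. Beside Cox8a, the lower ones included Atp5g2 and Atp5g1, which encode the same c subunit of the ATP synthase rotor. Atp5g2 was at 358 FPKM in DMSO, 169 with BPA, 201 with BPF and 157 with BPS (-0.97 ± 0.13, adjusted p = 0.000131). Atp5g1 was at 117 FPKM in DMSO, 50.8 with BPA, 74.0 with BPF and 54.6 with BPS (-0.92 ± 0.16). The third c subunit gene, Atp5g3, was at 318 FPKM in DMSO and at 265 to 305 with bisphenols, and did not pass (-0.14 ± 0.12). Atp5d, a subunit of the central stalk, fell by 0.70 ± 0.19 on the log2 scale. Among the raised members, Ndufb9 of complex I was at 134 FPKM in DMSO and at 184 to 202 with bisphenols (0.55 ± 0.09). Uqcrb of complex III rose (0.45 ± 0.09) while Uqcrq of the same complex fell (-0.58 ± 0.13).

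**Figure D2:**
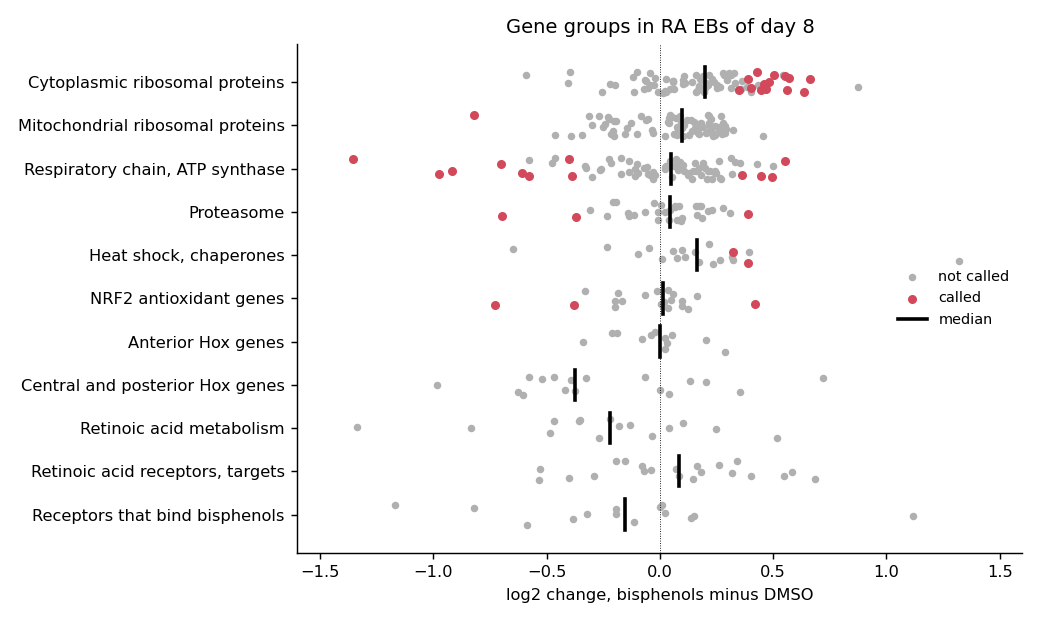
Log2 change of bisphenols minus DMSO (x axis) for the members of 11 gene groups in RA EBs, with called genes in red and a bar at each group's median. Ribosomal proteins of the cytoplasm center at 0.20 with 14 called to the right, while respiratory chain subunits have calls on both sides and the Hox, RA and receptor groups have none.

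Redox and protein-quality genes gave calls in both directions, where 0.902% of all genes were called higher and 1.44% lower. Of 20 NRF2 antioxidant genes, Sod1, the copper-zinc superoxide dismutase, was higher, at 505 FPKM in DMSO and 632 to 669 with bisphenols (0.42 ± 0.10). It did not pass with the correction for transcript length described below (0.38, adjusted p = 0.0691). The glutathione peroxidase Gpx1 was lower, at 95.8 FPKM in DMSO, 67.9 with BPA, 57.1 with BPF and 42.7 with BPS (-0.73 ± 0.17). The peroxiredoxin Prdx1 was lower as well (-0.38 ± 0.09), and the group's median was 0.01. Of 20 chaperones, 2 rose, Hspd1, the mitochondrial chaperonin (0.39 ± 0.10), and Stip1, which links Hsp70 to Hsp90 (0.32 ± 0.09). Of 33 proteasome subunits, Psmb3 (-0.70 ± 0.09) and Psmb2 (-0.37 ± 0.10) fell and Sem1 rose (0.39 ± 0.09). Sem1, a short transcript of 491 bases, did not pass with the correction for length (adjusted p = 0.0541) or for GC content (adjusted p = 0.0992). Insig1 and Dhcr7, which restrain and carry out cholesterol synthesis, fell by 0.36 ± 0.09 and 0.35 ± 0.09 on the log2 scale, as 2 of 31 genes of that group.

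No gene of RA handling passed the test. Among 15 tested genes of RA metabolism and transport, edgeR called 0, with 4 at an unadjusted p under 0.05, DESeq2 called 0, and the median was -0.22. Crabp2, an RA carrier that delivers it to receptors, was at 812 FPKM in DMSO, 1016 with BPA, 1131 with BPF and 1214 with BPS (0.52 ± 0.19, adjusted p = 0.148). Cyp26a1, an RA-degrading enzyme induced by RA, was at 112 FPKM in DMSO, 115 with BPA, 93.9 with BPF and 88.2 with BPS (-0.13 ± 0.23). For Crabp2 the DMSO library was the lowest, and for Cyp26a1 it lay within the bisphenol range. Cyp26b1 was at 141 FPKM in DMSO and 102 to 110 with bisphenols (-0.35 ± 0.14, adjusted p = 0.189), and Dhrs3, which turns retinal back to retinol, at 55.7 and 30.8 to 46.1 (-0.48 ± 0.18, adjusted p = 0.166). Among 21 receptors and targets of RA, edgeR and DESeq2 each called 0 and 2 had an unadjusted p under 0.05, with a median of 0.09. Rarb, a receptor gene that RA induces, was at 66.2 FPKM in DMSO, 62.0 with BPA, 58.6 with BPF and 67.2 with BPS.

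Hox genes, which RA turns on in order along their clusters, gave no call either. Of 12 anterior genes (paralogs 1 to 4) edgeR and DESeq2 each called 0, 1 had an unadjusted p under 0.05, and the median was -0.00 (-0.0012). Hoxb4 was at 41.9 FPKM in DMSO and at 42.0 to 51.4 with bisphenols. Among 17 central and posterior genes edgeR and DESeq2 each called 0, limma on log2(FPKM + 1) called 1, 2 had an unadjusted p under 0.05, and the median was -0.37. Hoxb9 came nearest, at 133 FPKM in DMSO, 90.8 with BPA, 81.7 with BPF and 85.2 with BPS (-0.58 ± 0.19, adjusted p = 0.0973). Hoxb5 was at 142 FPKM in DMSO and 156 to 197 with bisphenols (0.35 ± 0.19), and Hoxb8 at 232 and 209 to 216 (-0.07 ± 0.17). Genes of the HoxB cluster thus lay on opposite sides of DMSO, with none past the threshold.

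Receptors that bisphenols can bind gave no call. Of 14 tested, edgeR and DESeq2 each called 0, and 0 had an unadjusted p under 0.05. The thyroid hormone receptor Thra was at 22.8 FPKM in DMSO and 23.6 to 24.7 with bisphenols, and the estrogen-related receptor Esrra at 8.00 and 6.57 to 8.40. The estrogen receptor Esr2 was at 0.20 to 0.46 FPKM in the 4 libraries. Of 16 estrogen response genes edgeR and DESeq2 each called 0, with 2 at an unadjusted p under 0.05, among them Stc2 (4.42 FPKM in DMSO and 5.19 to 7.57 with bisphenols, 0.57 ± 0.23, adjusted p = 0.204). Cyp1a1, the classic target of the aryl hydrocarbon receptor, was at 0.37 FPKM in DMSO and 0.03 to 0.07 with bisphenols, and did not pass (adjusted p = 0.054, 0.0485 with the correction for length and 0.0449 with that for GC content, both described below).

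In neural fate genes single members passed, where 1.44% of all genes were called lower, so 1 call does not set a group apart. Pax8, a factor of spinal interneurons, was at 5.26 FPKM in DMSO and 2.37 to 2.85 with bisphenols (-0.95 ± 0.26, 1 of 36 spinal identity genes). Scrt2, a repressor in new neurons, was at 17.1 FPKM and 11.1 to 12.3 (-0.49 ± 0.13, 1 of 32 commitment genes), and the guidance signal Sema3f at 5.23 and 2.94 to 3.45 (-0.66 ± 0.14, 1 of 42). These 3 were lower with each bisphenol. With the correction for GC content described below, Sema3f kept its call, while Pax8 and Scrt2 did not pass (adjusted p = 0.0541 and 0.0659). Nes, an intermediate filament of neural progenitors, was at 41.5 FPKM in DMSO and 48.8 to 54.0 with bisphenols and did not pass (0.38 ± 0.11, adjusted p = 0.0661, and 0.0243 with the correction for GC content). Of 23 forebrain and midbrain regulators, edgeR and DESeq2 each called 0 and 5 had an unadjusted p under 0.05, with a median of -0.51. Lhx2 of the early forebrain was at 3.65 FPKM in DMSO, 3.20 with BPA, 2.07 with BPF and 2.08 with BPS (adjusted p = 0.249), and Dlx5 at 0.49, 0.07, 0.14 and 0.07 (adjusted p = 0.174). Neuron markers summed to 310 FPKM in DMSO and 248 to 268 with bisphenols (0 of 5 called), and pluripotency markers to 19.6 and 9.38 to 12.8 (0 of 5 called). Their part in the other changes was not tested. Of the 51 gene groups described, 36 held no called gene.

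Short transcripts were examined against the trend with length. Across 15632 genes the rank correlation of log2 change with transcript length was 0.08 (0.02 for BPA, 0.13 for BPF, 0.09 for BPS), a description of genes that share these 4 libraries. The 273 genes under 600 bases had a median change of 0.03, and the 4421 genes over 4000 bases 0.04. The short genes were more spread, with an interquartile range of 0.56 against 0.29. Of those under 600 bases, 11 were called higher and 10 lower (4.03% and 3.66%), against 0.882% and 0.407% over 4000 bases. The short calls thus went in both directions, around a median near 0 over all 273 genes. The 147 short genes at 20 FPKM or more had a median of 0.14.

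Within the short class, gene groups parted. The 33 ribosomal proteins under 600 bases had a median of 0.23 with 7 higher and 0 lower. The 240 other genes of that length, which were not matched to them in level, had a median of 0.00 (0) with 4 higher and 10 lower. From 600 to 1000 bases, the medians were 0.17 for 30 ribosomal proteins and 0.00 (0.0022) for 845 others. The 29 short respiratory chain subunits had a median of 0.09, with 1 higher and 2 lower. Against the median of its length class, Cox8a was lower by a log2 change of -1.38, Krtcap2 by -1.49 and Mif by -1.08, and Rps23 was higher by 0.54. When each library was corrected for its smooth trend with length, 127 of the 141 higher and 223 of the 225 lower calls kept their call, among 164 higher and 294 lower in all. Under that correction Cox8a had a change of -1.41, Krtcap2 -1.52, Tmem258 -1.23, Rps23 0.52 and Rpl35a 0.49.

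A trend with GC content was larger. The rank correlation with the GC percent of the transcript was -0.22 over 14931 genes. The median change went from 0.10 under 40% GC to -0.13 over 60%. In the class under 40% GC (709 genes), 6 genes were higher and 0 lower (0.846% and 0%). In the class from 55 to 60% (3187 genes), 19 were higher and 91 lower (0.596% and 2.86%). Over all genes the shares were 0.902% and 1.44%. The DMSO library deviated with GC by a rank correlation of 0.29, BPA by -0.30, BPF by 0.01 and BPS by -0.09. With a correction for the trend with GC, added after the data were seen, 112 of the 141 higher and 199 of the 225 lower calls kept their call. Cox8a then had a change of -1.27, Krtcap2 -1.39, Mif -0.97, Rps23 0.59 and Rpl24 0.65, and 17 ribosomal proteins were higher and 1 lower.

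**Figure D3:**
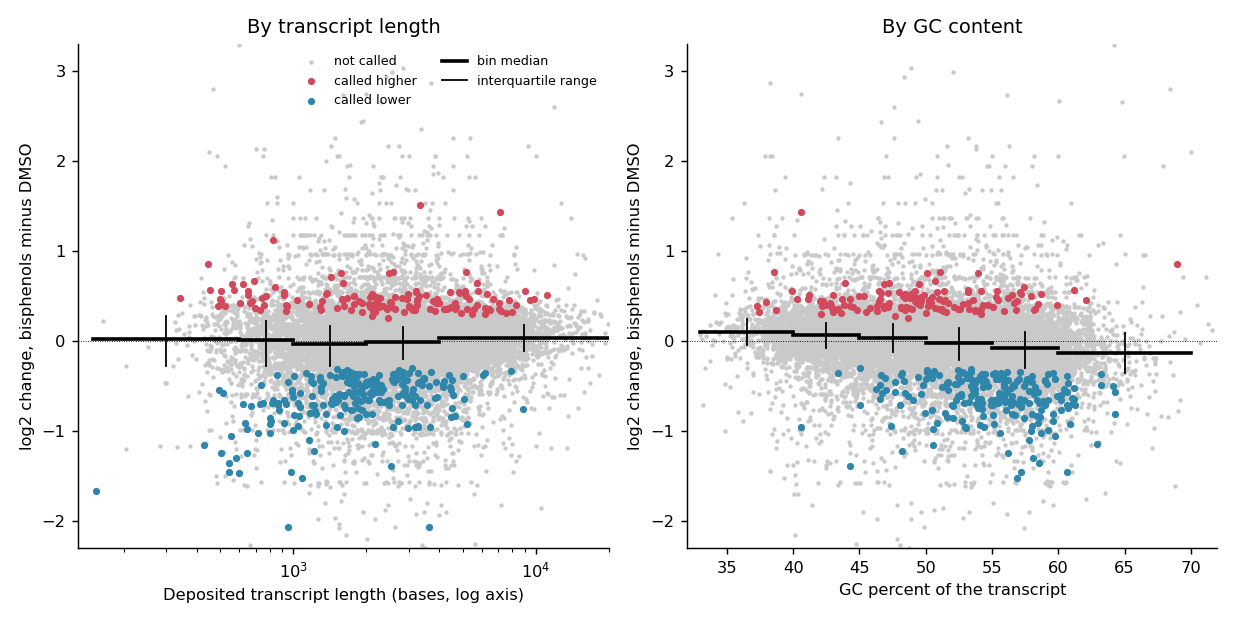
Log2 change of bisphenols minus DMSO against transcript length (left, log axis) and GC percent (right), with called genes colored, a thick bar at the median of each class and a thin line over its interquartile range. Medians by length stay between -0.03 and 0.04, medians by GC run from 0.10 to -0.13, and genes past the axis limits are not drawn.

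The 3 compounds were each set against the same DMSO library, so these comparisons share it. BPS gave 259 calls (1.66%), of which 107 were higher (0.684%) and 152 lower (0.972%). BPA gave 91 (0.582%), with 26 higher (0.166%) and 65 lower (0.416%), and BPF 43 (0.275%), with 12 higher (0.0768%) and 31 lower (0.198%). For Cox8a the log2 change was -1.17 with BPA, -1.66 with BPF and -1.28 with BPS. For Krtcap2 it was -1.17, -1.37 and -1.95, and for Prex2 1.63, 1.39 and 1.24, in the same order. Gpx1 had -0.47 with BPA, -0.69 with BPF and -1.09 with BPS.

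The direct comparison of compounds at the same dose and day covered 3 pairs, with p adjusted over all genes and pairs. edgeR called 0 genes between BPA and BPF (0%; 709 at an unadjusted p under 0.05), 1 between BPA and BPS (914 unadjusted; 0.0064%) and 1 between BPF and BPS (763 unadjusted; 0.0064%). Both calls were Atp6v0c, a proton channel subunit of the vacuolar ATPase, which was at 14.1 FPKM in DMSO, 23.0 with BPA and 28.0 with BPF and listed at 0 with BPS. Against a floor of 3 counts in the BPS library it was at least 96.5-fold higher with BPA and at least 117-fold higher with BPF. Summed with its copy Atp6v0c-ps2 it was at 101 CPM with BPA, 118 with BPF and 117 with BPS, and at 154 in DMSO. In the sum the BPS library lay between those of BPA and BPF.

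Among the 366 genes of the class comparison, the median size of the difference was 0.10 between BPA and BPF, 0.11 between BPA and BPS and 0.12 between BPF and BPS. Their 95% intervals reached a median of 0.29 to either side, and included 0 in 348, 337 and 330 of the 366 genes. Differences below that width could not be seen. Changes of the linking group between the phenol rings thus gave no called difference outside Atp6v0c, which does not show that the compounds act alike. Stra8, a meiosis gene that RA induces, was at 51.6 FPKM in DMSO, 64.4 with BPA, 20.5 with BPF and 19.3 with BPS. Its difference of BPA minus BPF was 1.62 (interval 0.93 to 2.31) and did not pass (adjusted p = 0.236). Rpl10 was at 1501 FPKM in DMSO, 902 with BPA, 1270.3 with BPF and 1452 with BPS, and BPA minus BPS was -0.74 (interval -1.01 to -0.46, adjusted p = 0.117). Tmem256 was at 112 FPKM in DMSO, 116 with BPA, 102 with BPF and 53.9 with BPS (BPA minus BPS 1.05, interval 0.65 to 1.46, adjusted p = 0.133).

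The lowered genes were also compared with the next stage of the neural branch, the NPCs of day 10, where the same compounds were tested against another DMSO library. There the bisphenol effect on Cox8a was 0.85 ± 0.17 (adjusted p = 0.00416), opposite to that in RA EBs, and the difference of the effects was -2.20 ± 0.22 (adjusted p = 2.56e-06). Tmem258 had an effect of 0.83 ± 0.22 in NPCs (adjusted p = 0.0452) and a difference of -1.98 ± 0.27. Krtcap2 and Atp5g2 had NPC effects that did not pass (0.47 ± 0.23 and 0.35 ± 0.16) and differences that did (-1.93 ± 0.28 and -1.32 ± 0.21). Over all genes the NPC effect passed for 2.25% (0.313% higher, 1.94% lower). The difference of the effects passed for 314 genes (2.01%), with 174 higher (1.11%) and 140 lower (0.896%) in RA EBs. The difference from the effect in EBs of day 9 passed for 721 genes (4.61%). Across the 225 lowered genes the median effect in NPCs was 0.08, with 4 called higher and 6 lower. Across the 141 raised genes it was 0.01, with 0 called higher and 3 lower.

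Levels of these genes at other stages are set beside those of the DMSO library. Cox8a ran from 134 to 233 FPKM in the 16 libraries of EBs of days 6 to 20 and from 39.97 to 72.8 in the NPCs, so that DMSO-treated RA EBs lay within the EB range and those with bisphenols nearer the NPC range. Krtcap2 ran from 77.5 to 119 FPKM in those EBs and from 18.6 to 26.7 in NPCs, and Tmem258 from 51.3 to 81.6 and from 13.4 to 25.1. Other lowered genes differed. Mif ran from 687 to 1623 FPKM in those EBs and from 197 to 309 in NPCs. Its bisphenol levels (654 to 764) reached into the EB range. The DMSO level of Oaz1 (66.2 FPKM) was above its EB range of 21.5 to 52.7. Among the 225 lowered genes the DMSO level was within the EB range for 172 and the bisphenol mean for 114. Among the 141 raised genes these counts were 115 and 58, and among all 15632 genes 12512 and 11971. The 4 NPC libraries were below the DMSO-treated RA EBs for 167 of the 225 lowered genes, 60 of the 141 raised and 7190 of all 15632. Lowered genes were called for a high level in that DMSO library and raised genes for a low one. These counts are thus partly set by the calls, and all genes together are not a like background. NPCs minus EBs had a median log2 difference (FPKM + 1) of -0.49 over the lowered genes and -0.12 over all genes. Raised genes also differed from each other. Rps23 ran from 1145 to 2555 FPKM in the EBs and from 1227 to 1402 in NPCs. Its bisphenol levels were above both ranges. Rpl35a ran from 520 to 1181 FPKM in the EBs, and its bisphenol levels (1078 to 1172) lay within that range. For Ccdc12 the DMSO level (39.7 FPKM) was itself above the EB range of 14.6 to 35.8.

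**Figure D4:**
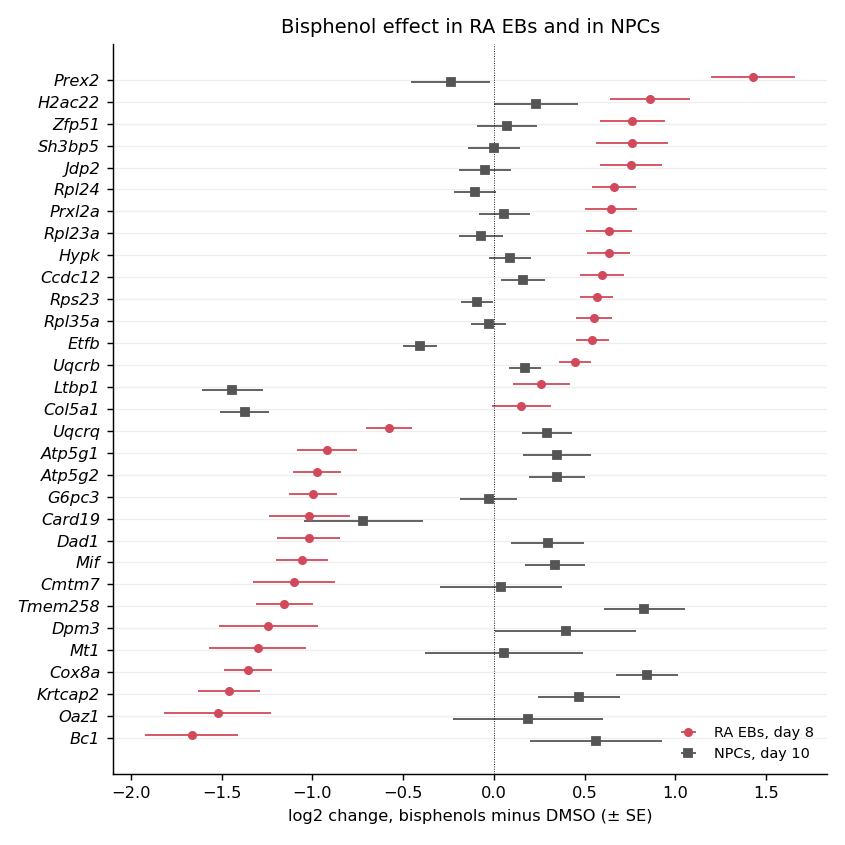
Log2 change of bisphenols minus DMSO (x axis, ± SE) in RA EBs (red circles) and NPCs (gray squares) for the named genes and for the genes with large differences between the stages, without H2ac24. Cox8a is at -1.35 in RA EBs and 0.85 in NPCs, and ribosomal proteins such as Rps23 are at 0.57 and -0.09.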

How the data were processed

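RNA of J1-derived cultures was sequenced, per the labels' protocols after extraction with Trizol and an RNeasy Plus kit. The authors deposited, per the file headers, an expected count, an FPKM and a transcript length for each gene and library. The length, in bases, is a deposited value of each file. RSEM, HISAT and Bowtie2 are listed in the submitters' processing notes with mm10 as the build, and their roles are not given in the sources used here. Genes carry Entrez identifiers, and 20551 of 20612 matched RefSeq (GRCm38.p6) directly. The members and lists were chosen with earlier results of these data known.

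Expected counts were rounded and tested with edgeR 4.0.16 (R 4.3.3) after a filter of 1 CPM in at least 4 libraries, with TMM scaling (factors 0.987 to 1.04 in RA EBs). A quasi-likelihood model of stage by class over 32 libraries (16 residual degrees of freedom) compared bisphenols with DMSO. A model with each RA EB library as its own term compared compounds (14 degrees of freedom, all from the bisphenol libraries of the other stages). Differences between stages were interaction terms. Log2 values used a prior count of 1, p-values were Benjamini-Hochberg adjusted, and SE came from the F value. The named genes were the 12 higher and 12 lower called genes of 5 FPKM or more with the largest change in 1 direction in the 3 compounds, gene models and pseudogenes excluded. To these came the 5 and 5 with the smallest p under 600 bases, up to 4 called members (or 2 of the smallest p) for each list, and 4 and 4 (or 3) for pairs and stages. A gene of a described list is not reported here. In lists, other genes named were chosen after their values were seen, as were the oligosaccharyltransferase, Atp5g3, Rpl34, Rps15a and copy sums. Length and GC corrections were smooth curves (span 0.4) for each library. GC percent came from GENCODE M21 transcripts and was known for 95.5% of genes. DESeq2 1.42.0 and limma 3.58.1 were alternatives. In simulated data of 15632 genes, changed genes were drawn only from those with higher counts in RA EBs. In the class comparison, 44% of genes changed by a log2 of 0.5 and 87% changed by 1 were recovered, with 7 unchanged genes called. The simulated DMSO library had no deviation of its own, unlike the real one. False calls from such a deviation thus could not be seen. Between BPA and BPS, 77% were recovered at 1 and 96% at 2, with 13 unchanged called.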

Additional observations from a re-analysis of the deposited data

Results flagged for a closer look

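The effect of bisphenols differed between RA EBs and another stage for many genes, by an interaction term in edgeR's quasi-likelihood test. Against NPCs of day 10 this held for 314 genes, and against EBs of day 9 for 721 genes (4.61%), each stage with its own lone DMSO library.

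Against NPCs, the RA EB effect was higher by a log2 of 1.70 for Ltbp1, a carrier of latent TGF-beta, by 1.53 for the collagen Col5a1 and by 0.95 for Etfb, an electron transfer flavoprotein. For Ltbp1 and Col5a1 the NPC effects were -1.44 and -1.37, and the RA EB effects 0.26 and 0.15. It was higher by a fitted 18.26 for H2ac24, a value that depends on the prior count, since that gene has no counts in most libraries. It was lower for Cox8a (-2.20), Tmem258 (-1.98), Krtcap2 (-1.93) and Atp5g2 (-1.32).

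Against EBs of day 9, the RA EB effect was higher by 1.69 for Pax6, a neural progenitor factor, by 1.14 for the RNA-binding protein gene Khdrbs3, by 0.81 for Nhsl1 and by 0.77 for Ckap2, of the mitotic spindle. It was lower for Rarb (-2.23), the collagen Col26a1 (-2.24), Krtcap2 (-1.59) and Fxyd6 (-0.88). Except for Krtcap2, the RA EB effect of these genes was within 0.36 of 0. The day 9 effects were -1.61 for Pax6 and 2.19 for Rarb.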

How the results depend on the processing

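The class comparison gave 366 calls. It gave 565 with GC and length corrections together (chosen after seeing the data), 126 with only the RA EB and NPC libraries, 2 with only the RA EB libraries and 26 with a log2 change of 1 or more required as well. Leaving out 1 bisphenol library gave 182 (without BPS) to 358 (without BPF), with 224 without BPA. The length correction gave 141 in place of 91 for BPA, 66 in place of 43 for BPF and 3 in place of 1 for BPA against BPS. The median under 600 bases was 0.14 for genes at 20 FPKM or more. DESeq2 called 430. limma on log2(FPKM + 1) called 545, with 111 higher and 434 lower, and on log2(FPKM + 0.1) 478, with 101 and 377. For the difference from NPCs, the GC correction gave 270 higher and 116 lower. The cause was not tested, except that fits with fewer libraries have fewer residual degrees of freedom. Of the 26 named genes of the class comparison, none changed direction where a setting gave a value, and DESeq2 gave no adjusted p for H2ac24 and Dpm3. The fit of RA EB libraries alone called 0 of the 26. The fit of RA EB and NPC libraries lost Zfp51, Sh3bp5, Jdp2, Prxl2a and Card19, GC and length together lost Uqcrb, and limma lost H2ac22 (both pseudocounts) and Sh3bp5 (0.1). Robust dispersion left out H2ac24 and H2ac22, leaving out BPA lost H2ac22, Zfp51 and Sh3bp5, and leaving out BPS lost H2ac22, Sh3bp5, Jdp2 and Dpm3. No paired analysis was possible because the labels give no replicate numbers and each stage and treatment has 1 library.

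The lone DMSO library limits every comparison with DMSO, which could not be repeated without it. The depth limits genes of low level, and copies with shared reads limit single genes of histone and ribosomal protein families.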

Other observations

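Gene families defined by their symbols were chosen after values were seen, and no enrichment was tested. Of 201 tested genes with a Tmem symbol (transmembrane proteins), 0 were higher and 10 lower, with a median log2 change of -0.14, and of 291 with an Slc symbol (solute carriers), 0 were higher and 9 lower, with a median of -0.13. All 15632 genes had a median of 0.00 (0.00047), with 141 higher (0.902%) and 225 lower (1.44%). Tmem genes lay below DMSO in the 3 bisphenol libraries for 104 of 201 and above it for 19, and Slc genes for 139 and 36 of 291. Of all genes, 31.6% lay below DMSO in the 3 libraries and 29.8% above. Of 20 genes with an Smim symbol (small integral membrane proteins), 0 were higher and 1 lower, with a median of 0.01 and 7 below and 5 above DMSO. Slc35c2 and Slc35b1, nucleotide sugar carrier family members, had log2 changes of -0.81 ± 0.13 and -0.80 ± 0.14. Psenen and Aph1a, subunits of the gamma-secretase that cuts Notch, had -0.72 ± 0.13 and -0.53 ± 0.11, as 2 of 6 subunits.

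Of 13 prefoldin and chaperonin subunits, which fold actin and tubulin, 1 was called (Pfdn2, 0.48 ± 0.08). In the 3 bisphenol libraries 12 of the 13 lay above DMSO, as did 29.8% of all genes, and the median was 0.20. Top2a, a topoisomerase of dividing cells (0.35 ± 0.09), and Mthfd2, a mitochondrial folate enzyme (0.49 ± 0.13), were the called members of the replication and stress response groups. Top2a did not pass with the correction for GC content (0.28, adjusted p = 0.0588).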
